A study of Homo sapiens with 8 samples.

Results

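The genes described here are 51 genes of mitosis and of the G2/M transition: mitotic cyclins and kinases, kinesins, kinetochore proteins and cytokinesis factors. They were taken by symbol from the deposited expression table, in which all 51 were found among 16782 genes, and all 51 passed the filter on low values that left 15593 genes for testing. RNA came from the established renal carcinoma line CAKI1, of human origin, after the cells had been kept without serum for 24 h. The cells were then either left as controls without stimulation or stimulated for 24 h with 5 µg/mL of hLcn-2, the iron-loaded (holo) form of lipocalin-2, a secreted protein that carries iron bound to siderophores. There were 4 control and 4 hLcn-2 samples, numbered 1 to 4 in each group, and libraries of transcript 3′ ends with unique molecular identifiers held between 1501563 and 13953090 reads. Whether the numbers stand for separate cultures is not given in the labels, so p-values measure the spread between these samples, which may be technical.

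The renal and mesenchymal-type markers of the line were present in every sample, with VIM between 1302 and 2181, MET between 829 and 1049 and PAX8 between 200.9 and 245 normalized counts. Normalized counts have the scale of CPM, a gene's reads relative to the size of its library. The keratins were lower, with KRT18 between 62.7 and 133 and KRT8 between 25.4 and 43.9. Of 6 markers listed for the line, 5 were in the table, and the keratin gene KRT19 was not. ALB, a hepatocyte gene, lay between 0 and 1.48, and 0 of 3 leukocyte and 0 of 2 endothelial markers were in the table.

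Cells that enter mitosis switch on a shared gene program late in the cycle. Cyclin B and CDK1 drive entry, Aurora and Polo-like kinases build the spindle, kinetochores tie chromosomes to it, and the anaphase-promoting complex ends mitosis by marking cyclin B and securin for destruction. In resting cells the DREAM complex (DP, RB-like, E2F and MuvB) holds these genes down, and in G2 phase the same MuvB core joins B-MYB and FOXM1 to activate them. It reaches the DNA through the cell cycle gene homology region, with the letters TTTGAA, often beside CCAAT boxes bound by NF-Y. In RNA from whole cultures, a smaller share of cells in G2 or mitosis and less of these transcripts per cell cannot be told apart.

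Stretches of 150 bases before the start site are shown for 6 members to let their shared letters be seen beside the expression values. They come from the RefSeq promoter table (GRCh38.p14) and run 5′ to 3′ on the strand of the gene. Capitals mark TTTGAA and CCAAT on either strand, so that TTCAAA and ATTGG are matches of the opposite strand. The first is MKI67 (chr10:128126424-128126573, minus strand), which had the largest decrease of the members, then CCNB2 (chr15:59104996-59105145, plus strand), which was next. PLK1 (chr16:23678739-23678888, plus strand) and CKS2 (chr9:89311045-89311194, plus strand) had mean differences close to 0. CCNB1 (chr5:69167000-69167149, plus strand) and KIF20A (chr5:138178962-138179111, plus strand) hold CCAAT boxes without TTTGAA. The lack of these letters need not be a lack of the region, which can have other letters.
MKI67: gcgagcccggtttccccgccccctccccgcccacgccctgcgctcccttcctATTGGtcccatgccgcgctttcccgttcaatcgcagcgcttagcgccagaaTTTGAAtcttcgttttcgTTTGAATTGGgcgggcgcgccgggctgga
CCNB2: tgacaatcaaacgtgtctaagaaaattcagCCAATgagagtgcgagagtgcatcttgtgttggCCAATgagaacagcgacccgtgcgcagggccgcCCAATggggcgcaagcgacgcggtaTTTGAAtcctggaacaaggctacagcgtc
PLK1: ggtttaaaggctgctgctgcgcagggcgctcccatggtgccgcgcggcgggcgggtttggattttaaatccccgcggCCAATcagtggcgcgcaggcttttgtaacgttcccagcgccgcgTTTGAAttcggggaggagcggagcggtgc
CKS2: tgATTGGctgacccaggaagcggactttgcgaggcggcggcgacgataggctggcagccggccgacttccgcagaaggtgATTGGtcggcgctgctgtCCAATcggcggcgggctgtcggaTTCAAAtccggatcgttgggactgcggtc
CCNB1: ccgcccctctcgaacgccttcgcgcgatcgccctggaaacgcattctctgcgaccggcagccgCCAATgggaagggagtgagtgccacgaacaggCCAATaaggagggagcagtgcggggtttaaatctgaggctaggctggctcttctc
KIF20A: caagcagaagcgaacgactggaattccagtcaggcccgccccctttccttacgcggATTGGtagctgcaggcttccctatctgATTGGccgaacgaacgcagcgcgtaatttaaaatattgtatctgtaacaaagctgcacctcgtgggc

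In MKI67, CCNB2, PLK1 and CKS2 a TTTGAA match began at position -29 from the start site, on the opposite strand in CKS2. MKI67 held a further match at -47, and its match at -29 shares its last base with a CCAAT box of the opposite strand. CCNB2 had CCAAT boxes at -120, -87 and -54, at even distances from each other.

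The table held promoters for 44 of the 51 members, in 52 windows of 300 bases (250 before to 50 after the start). AURKA, TPX2, TTK, BIRC5, UBE2C, FOXM1 and RACGAP1 had no entry. TTTGAA was found on either strand in 36 windows of members (69.2%), against 15.2% of all 35116 promoter windows of that length and 10.8% of the 15334 windows of genes tested. CCAAT was found in 43 windows of members (82.7%), against 34.6% of all windows. Both stood together in 59.6% of the members' windows and in 5.90% of all. The variant TTCGAA, also searched on both strands, was in 5.77% of the members' windows and 1.45% of all windows. Windows of replication and S phase genes held CCAAT in 66.7% and TTTGAA in 3.03%. Those of the further G2/M genes described below held TTTGAA in 46.2%, CCAAT in 55.4%, both in 29.2% and TTCGAA in 15.4%. A match of letters is a description of the sequence and not of a bound site. Forms of the region other than TTTGAA and TTCGAA were not searched.

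**Figure D1:**
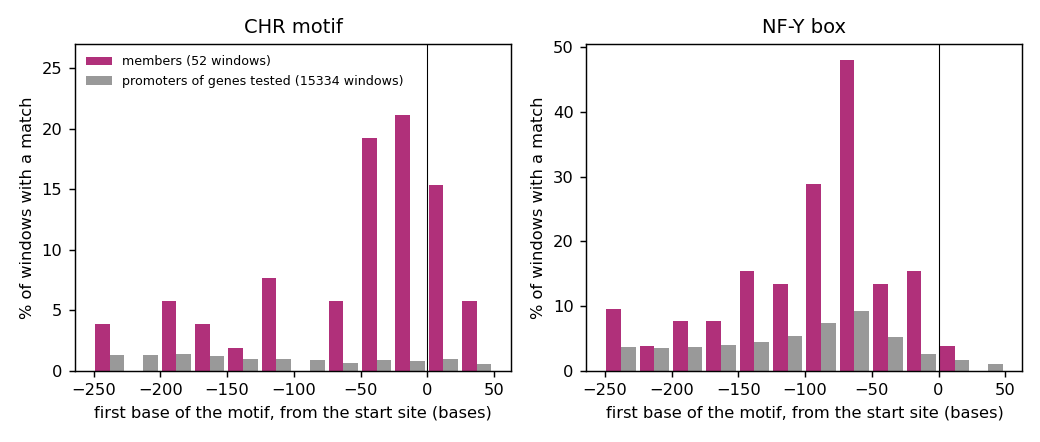
Percentage of promoter windows with a match in bins of 25 bases, by distance from the start site in bases, for TTTGAA (left, cell cycle gene homology region, CHR) and CCAAT (right, NF-Y box), in 52 windows of members (magenta) and 15334 windows of genes tested (grey). Matches of TTTGAA in members were most frequent in the bin from -25 to 0 (21.2% of windows, against 0.822%).

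Samples with number 3 stood apart in both groups. Summed over the 51 genes, the normalized counts were 6922, 7662, 2452 and 7418 in controls 1 to 4, and 5686, 7014, 2142 and 6321 in hLcn-2 samples 1 to 4. Control 3 was thus 3.03-fold below the median of the other controls, and hLcn-2 sample 3 was 2.95-fold below the median of the other hLcn-2 samples. The members made up 0.240% and 0.208% of all normalized counts in these 2 samples and between 0.563% and 0.809% in the other 6.

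For 48 of the 51 members, number 3 was the lowest sample of both groups, a pattern that 19.9% of all genes tested showed. The exceptions were CENPN, FOXM1 and UBE2S. The mean log2 level in number 3 minus that of the other numbers had a median of -1.57, and ran from -2.22 for SPC25 to -0.64 for CENPN. It was -1 or less for 47 members, while 3.08% of all genes tested (480 genes) differed as much in that direction. The 47 members were 9.79% of those 480 genes. The drop was not particular to the members. In the further G2/M genes described below the median was -1.33, with 46 of 63 genes (73.0%) at -1 or less. In the replication and S phase genes it was -1.08, with 16 of 27 (59.3%). Number 3 was the lowest sample of both groups for 93.7% and 81.5% of these lists. The DREAM, MuvB and RB family regulators had a median of -0.32, with 19.2% at -1 or less.

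The test of replicate number (limma F test, with treatment in the model) called 49 of 51 members at an adjusted p under 0.05, against 27.4% of all genes tested (4272 genes). FOXM1 (adjusted p = 0.211, limma F test) and UBE2S (adjusted p = 0.105) did not pass, and both had few reads, at most 33 and 35 in any library. With number 3 left out, the same test called 3 members, CENPA, MAD2L1 and NUSAP1, against 5.74% of all genes tested (895 genes). The number is a label with 1 control and 1 hLcn-2 sample, and what set number 3 apart is not given in the sources used here.

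Control 3 held 5799151 reads, while control 4, the shallowest library with 1501563 reads, had a summed member level between those of controls 1 and 2. In the other group, hLcn-2 sample 3 was also the shallowest library, with 2088266 reads against 4619920 to 11341137. Transcripts of the mitochondrial genome took 12.7% of normalized counts in control 3 and 13.8% in hLcn-2 sample 3, against 7.37% to 8.83% in the other 6 samples. The part of depth and of these transcripts in the low values was not tested.

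**Figure D2:**
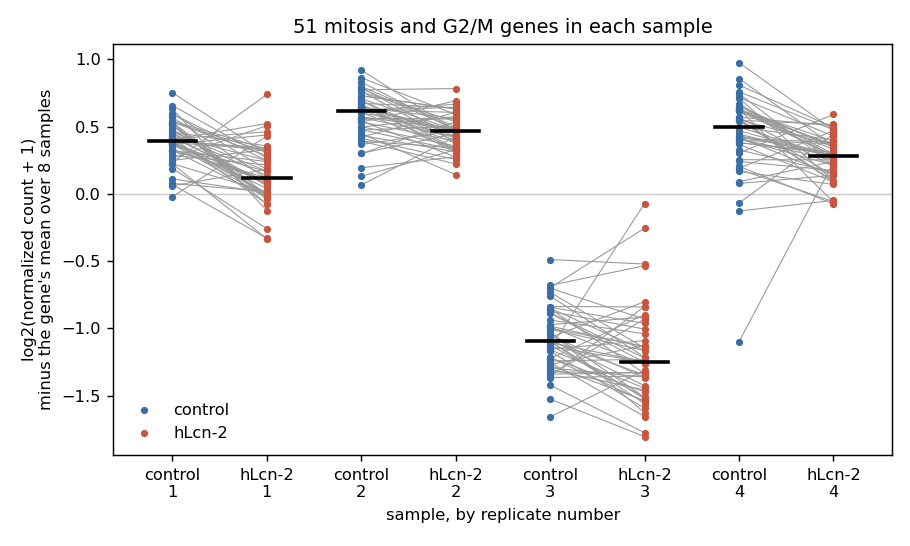
Each point is one of the 51 genes in one sample, as log2(normalized count + 1) minus the mean of that gene over all 8 samples. Samples are in order of replicate number, lines join the control (blue) and hLcn-2 (red) sample of the same number, and black bars are medians over genes. Both samples of number 3 lie below the others, and the median of the hLcn-2 sample is below that of its control in each pair.

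The first comparison asks whether hLcn-2 changed the level of these transcripts. By limma on log2(normalized count + 1) without regard to the numbers, 0 of the 51 members were called at an adjusted p under 0.05, as were 0% of all genes tested. None of the members had an unadjusted value under 0.05 by limma, edgeR or DESeq2 in such a fit, while 355 of all genes did so by limma. No member had all hLcn-2 values above or below all control values, which 1.88% of all genes tested showed. For 48 members number 3 was the lowest sample of both groups. A drop of that size makes the groups overlap by itself, so this count cannot show whether hLcn-2 changed the members. Still, 42 members had a lower and 9 a higher mean after hLcn-2. Their median log2 fold change was -0.17, against 0.00083 over all genes tested, of which 49.8% were lower. Without control 3 the members' median was -0.60 and without both samples of number 3 it was -0.18. Without hLcn-2 sample 3 alone it was 0.21, with 4 members lower. Leaving out only 1 sample of number 3 keeps its low partner in the other group, so these medians mix number with treatment.

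The residual SD of a member on the log2 scale had a median of 0.81 when number was ignored, and of 0.13 when samples of the same number were set against each other. Over all genes tested these medians were 0.32 and 0.20. With number 3 left out and number ignored, the members' median SD was 0.21, against 0.26 over all genes tested.

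**Figure D3:**
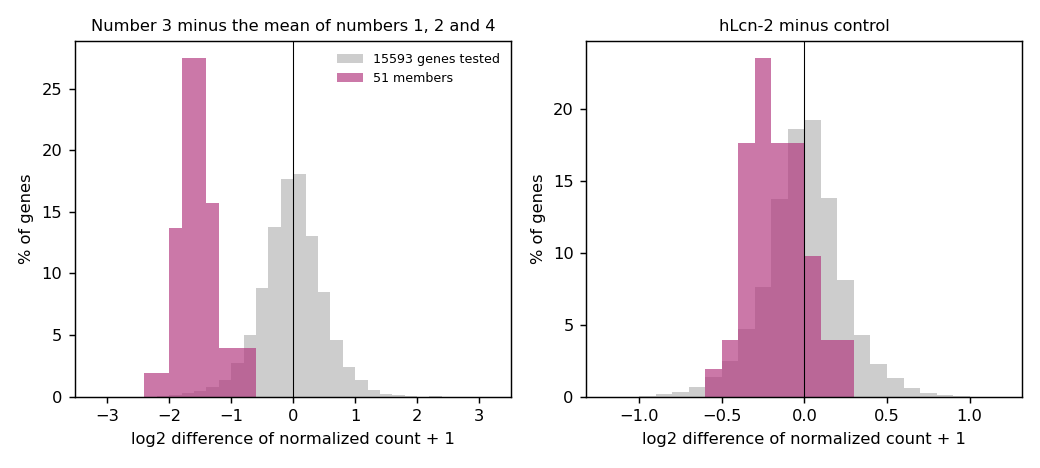
Percentage of genes by log2 difference for the 51 members (magenta) and all 15593 genes tested (grey), between number 3 and the mean of the other numbers (left) and between hLcn-2 and control means (right). The members lie apart from the genes tested on the left, with a median of -1.57, and are shifted to the left within their range on the right, with a median of -0.17.

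Within the 4 same-numbered pairs, the members were mostly lower after hLcn-2. Their median log2 difference was -0.29, -0.14, -0.15 and -0.22 in pairs 1 to 4, against -0.016, 0.0076, -0.045 and 0.038 over all genes tested. Of the 51 members, 43, 37, 37 and 44 were lower in pairs 1 to 4. In 4 of 4 pairs 28 members were lower (54.9%), against 10.9% of all genes tested, and 9 more were lower in 3 of 4. The centromeric histone gene CENPA was the 1 member that was higher in 4 of 4 pairs, against 9.93% of all genes tested. Leaving out pair 3, an alternative added after the data were seen, 30 members were lower in all 3 remaining pairs, against 16.1% of all genes tested. Summed over the members, the hLcn-2 sample was 17.9%, 8.46%, 12.7% and 14.8% below its control in pairs 1 to 4. An exact sign test over 4 pairs cannot reach the threshold of 0.05, and members share the same samples, so these counts are descriptions.

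With the replicate number as a block, limma called 1 member, MKI67, which was lower, while 0.0641% of all genes tested (10 genes) were called lower. At an unadjusted threshold of 0.05, 24 members were lower and 0 higher in this fit, against 5.53% of all genes tested that were lower. Quasi-likelihood edgeR on the whole reads with the same block called 4 members lower, CCNB2, CENPF, MKI67 and SGO2, against 0.372% of all genes tested (58 genes). DESeq2 with the block also called 4 members lower, with ECT2 in the place of SGO2, against 0.295% of all genes tested (46 genes).

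**Figure D4:**
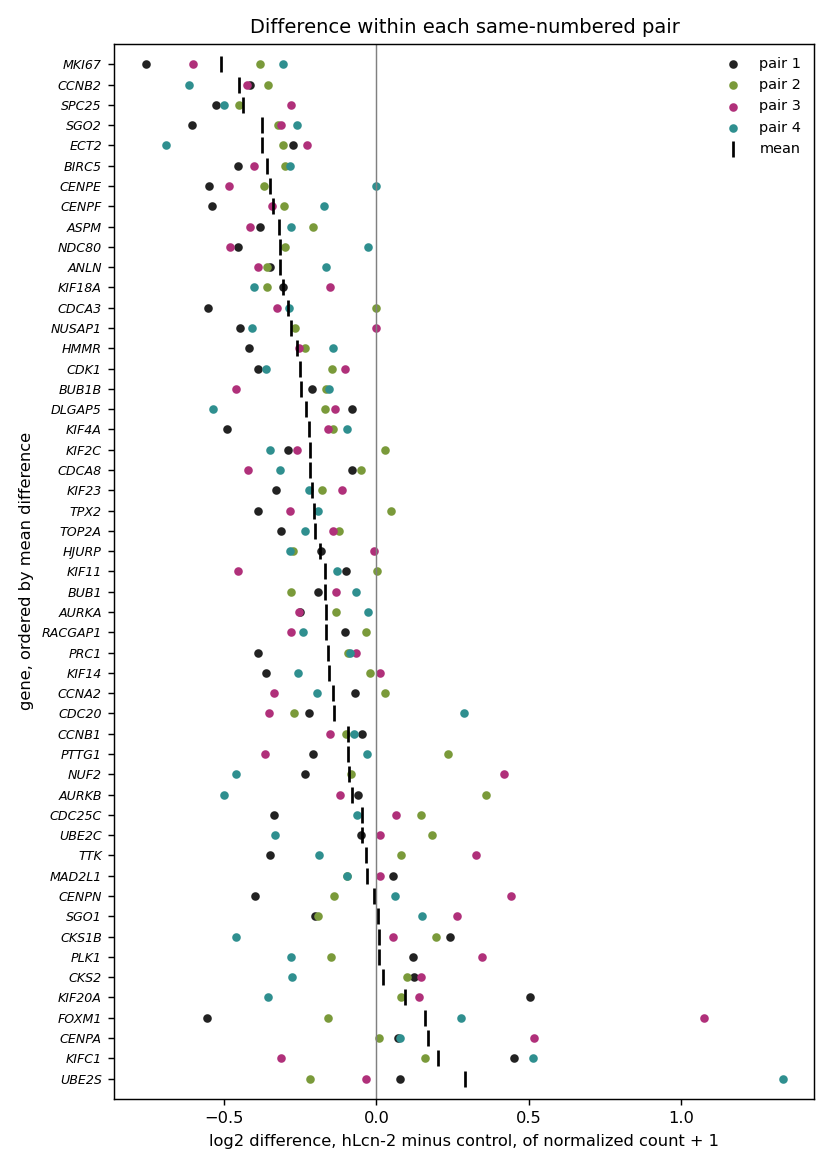
Log2 difference of normalized count + 1 between the hLcn-2 and the control sample of the same number for each of the 51 genes, ordered by the mean of the 4 pairs (black tick). Points left of the line at 0 are lower after hLcn-2, as for 28 genes in 4 of 4 pairs, and the widest scatter is that of UBE2S and FOXM1, which had few reads.

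MKI67 and TOP2A act on the chromosomes themselves. MKI67 (chr10:128096659-128126423, minus strand, GRCh38) encodes Ki-67, which coats mitotic chromosomes and is the usual marker of cycling cells. Its normalized counts were 236, 258, 74.0 and 239 in controls 1 to 4 and 139, 198, 48.4 and 193 in hLcn-2 samples 1 to 4. Every hLcn-2 sample was below its own control, with log2 differences of -0.76, -0.38, -0.60 and -0.31, but the groups overlapped because control 3 was below hLcn-2 samples 1, 2 and 4. The means were 202 ± 85.7 in controls and 145 ± 69.5 after hLcn-2 (SD, n = 4), a log2 fold change of -0.51. Its standard error was 0.46 without and 0.090 with the replicate block. The adjusted p with the block was 0.0373 by limma, 0.00792 by edgeR and 0.000884 by DESeq2. The call by limma was lost when pair 1, 2 or 3 was left out, with adjusted p of 0.121, 0.153 and 0.172 in limma, and stayed without pair 4. Setting the 4 controls against the 4 hLcn-2 samples without pairing, a two-sided exact permutation test gave p = 0.457, where 0.0286 is the smallest it can give. Its reads were between 98 and 3443 per library.

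TOP2A encodes topoisomerase II alpha, which untangles sister chromatids. It lay at 1157, 1147, 393 and 1312 in controls 1 to 4 and 932, 1053, 356 and 1114 in hLcn-2 samples 1 to 4. It was lower in 4 of 4 pairs, with log2 differences between -0.31 and -0.12, and number 3 was again the low sample of each group. The log2 fold change of -0.20 had a 95% interval of -0.36 to -0.050 with the block, and did not pass the adjusted threshold (limma with the block, adjusted p = 0.265).

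**Figure D5:**
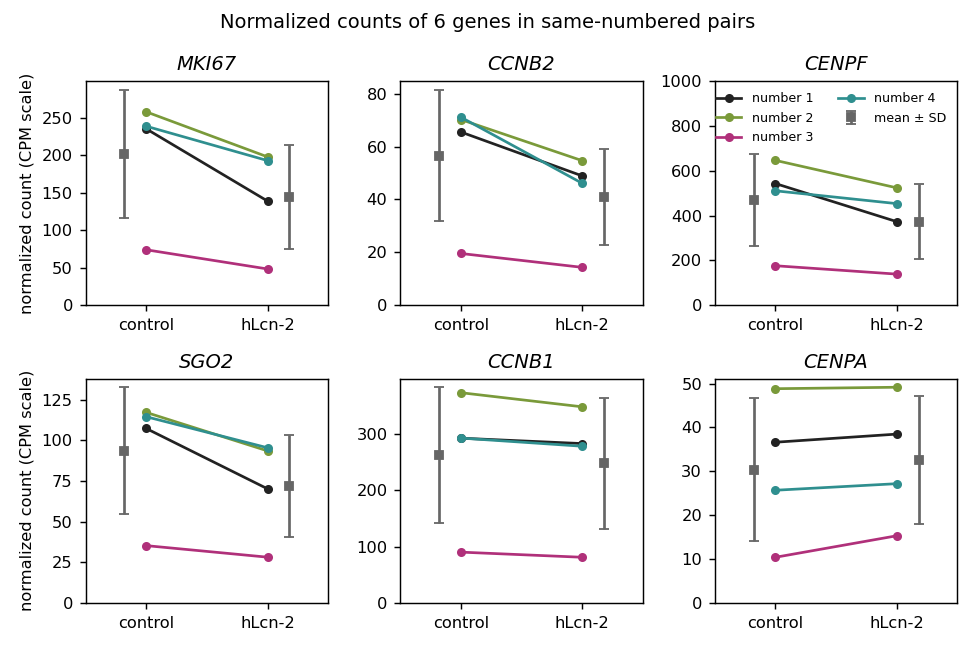
Normalized counts (CPM scale, axes from 0) of 6 genes in each sample, with lines joining the control and hLcn-2 sample of the same number and grey squares giving the group mean ± SD (n = 4). The lines of MKI67, CCNB2, CENPF, SGO2 and CCNB1 fall in every pair and those of CENPA rise, while the lowest line is number 3 in all 6 genes.

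Entry into mitosis is driven by cyclins A and B with CDK1. Of the 9 genes of this group, 6 had a lower and 3 a higher mean, and 4 were lower in 4 of 4 pairs. CCNB2, a B-type cyclin (chr15:59105126-59125045, plus strand), had normalized counts of 65.5, 70.2, 19.6 and 71.1 in controls 1 to 4 and 48.9, 54.7, 14.3 and 46.1 in hLcn-2 samples 1 to 4. The hLcn-2 sample was lower in each pair, with log2 differences of -0.41, -0.36, -0.43 and -0.61, and control 3 was below all other controls and all hLcn-2 samples but number 3. With the block, the log2 fold change of -0.45 (standard error 0.10) had an adjusted p of 0.0845 in limma, short of the threshold, and of 0.0349 in edgeR.

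CCNB1 encodes the main cyclin partner of CDK1 at entry. Its normalized counts were 292, 373, 90.1 and 292 in controls 1 to 4 and 283, 348, 81.0 and 278 in hLcn-2 samples 1 to 4. Differences within pairs were small beside CCNB2, between -0.15 and -0.048 on the log2 scale, although all had the same sign. The interval of its log2 fold change of -0.093 with the block ran from -0.25 to 0.063. It had the strongest result of the members for replicate number, with an adjusted p of 8.31e-07 in the limma F test and a log2 difference of -1.84 between number 3 and the others.

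CDK1 itself was measured at 134, 147, 53.6 and 154 in controls 1 to 4 and 102, 133, 49.9 and 119.6 in hLcn-2 samples 1 to 4. Each hLcn-2 sample was below its control, most in pairs 1 and 4 (-0.39 and -0.36) and least in pair 3 (-0.10). Its log2 fold change was -0.25 (standard error 0.087 with the block, adjusted p = 0.265 in limma). CCNA2, CDCA3, CDC25C, CKS1B and CKS2 had log2 fold changes between -0.29 (CDCA3, a factor that promotes mitotic entry) and 0.023 (CKS2, a small CDK-binding subunit).

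FOXM1, the forkhead factor that activates many of the other members in G2, could hardly be measured. Its values were 2.04, 2.48, 0.176 and 1.98 in controls 1 to 4 and 1.07, 2.11, 1.48 and 2.61 in hLcn-2 samples 1 to 4. Control 3 held 1 read and the deepest count was 33 reads, and 3 reads were worth between 0.211 and 1.98 depending on the library. The interval of its log2 fold change with the block, -0.45 to 0.77, was the second widest of the members, after UBE2S.

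Among the mitotic kinases and their activators, PLK1, AURKA, TTK, BUB1 and TPX2, 4 had a lower and 1 a higher mean, and 2 were lower in 4 of 4 pairs. AURKA, the Aurora kinase of the spindle poles, lay at 159.8, 168, 46.7 and 147 in controls 1 to 4 and 134, 153, 39.0 and 144 in hLcn-2 samples 1 to 4. It was lower in each pair, with a log2 difference of only -0.028 in pair 4 (log2 fold change -0.17, adjusted p = 0.456 in limma with the block). TPX2 targets AURKA to spindle microtubules and switches it on, and it lay at 181, 212, 61.0 and 202 in controls 1 to 4 and 138, 219, 49.9 and 177 in hLcn-2 samples 1 to 4. It was lower in 3 of 4 pairs and by 0.046 higher in pair 2.

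PLK1 encodes Polo-like kinase 1, which acts in entry, spindle assembly and cytokinesis. The measured values were 36.3, 38.3, 7.93 and 46.8 in controls 1 to 4 and 39.5, 34.4, 10.4 and 38.3 in hLcn-2 samples 1 to 4. Its pairs went in both directions (0.12, -0.15, 0.35 and -0.28 on the log2 scale), and the mean difference of 0.0086 changed sign under 5 of the 13 alternatives with all 8 samples, CPM of the column total and both fits by DESeq2 among them. The interval with the block was -0.27 to 0.29. In number 3 it was 4.82-fold below the median of the other controls and 3.69-fold below that of the other hLcn-2 samples. Exons of PLK1 overlap ERN2 on the opposite strand, and the strand setting of the counting is not stated.

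The chromosomal passenger complex corrects wrong attachments at centromeres, with AURKB as its kinase and BIRC5 (survivin) and CDCA8 (borealin) as targeting subunits. All 3 had lower means after hLcn-2. BIRC5 lay at 117, 121, 28.4 and 92.8 in controls 1 to 4 and 85.2, 98.0, 21.2 and 76.1 in hLcn-2 samples 1 to 4. It was lower in 4 of 4 pairs, between -0.46 and -0.28 on the log2 scale, and its adjusted p with the block was 0.117 in limma and 0.0613 in edgeR, both short of the threshold.

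The kinase gene AURKB was less even, with normalized counts of 128, 127, 67.2 and 221 in controls 1 to 4 and 123, 163, 61.7 and 156 in hLcn-2 samples 1 to 4. The log2 differences were 0.36 in pair 2 and -0.50 in pair 4, and the interval of its log2 fold change with the block was -0.33 to 0.17.

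Checkpoint, anaphase-promoting complex and cohesion genes formed a mixed group, with 6 of 8 lower in the mean and 2 in 4 of 4 pairs. SGO2 encodes a shugoshin that protects cohesin at centromeres, and its exons overlap KCTD18 on the opposite strand. Its values were 107, 117, 35.3 and 115 in controls 1 to 4 and 70.2, 93.5, 28.1 and 95.5 in hLcn-2 samples 1 to 4. The hLcn-2 sample was the lower one of every pair, with log2 differences of -0.61, -0.32, -0.32 and -0.26, the largest in pair 1. The adjusted p with the block was 0.118 in limma and 0.0443 in edgeR.

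CDC20, the activator of the anaphase-promoting complex, had values of 48.0, 60.6, 11.6 and 40.8 in controls 1 to 4 and 41.1, 50.01, 8.89 and 50.01 in hLcn-2 samples 1 to 4. It was lower in pairs 1 to 3 and higher by 0.29 in pair 4, and in number 3 it was 4.13-fold and 5.63-fold below the medians of the other controls and hLcn-2 samples. PTTG1 (securin), which blocks separase until anaphase, lay at 281, 296, 129 and 352 in controls 1 to 4 and 243, 349, 100.2 and 344 in hLcn-2 samples 1 to 4. Its pairs ran from -0.36 to 0.24 on the log2 scale. BUB1B, which encodes the checkpoint protein BubR1, was lower in 4 of 4 pairs (log2 fold change -0.25), while UBE2C, MAD2L1 and SGO1 had log2 fold changes between -0.047 and 0.0053. UBE2S, the ubiquitin-conjugating enzyme that extends chains on the complex's substrates, held 0 reads in control 4 and at most 35 in any library, so no fold is given.

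Centromere and kinetochore genes had a median log2 fold change of -0.25, and 5 of 8 were lower in 4 of 4 pairs. CENPF, a large kinetochore protein that accumulates in G2 (chr1:214603185-214664574, plus strand), had normalized counts of 543, 646, 176 and 510.3 in controls 1 to 4 and 373, 524, 139 and 453 in hLcn-2 samples 1 to 4. The pair differences of -0.54, -0.30, -0.34 and -0.17 had the same sign throughout, and the log2 fold change was -0.34 (standard error 0.078 with the block). Its adjusted p with the block was 0.0925 in limma, 0.0394 in edgeR and 0.0228 in DESeq2.

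SPC25, a subunit of the NDC80 complex that binds microtubules, was measured at 21.1, 28.5, 4.41 and 29.6 in controls 1 to 4 and 14.3, 20.6, 3.46 and 20.7 in hLcn-2 samples 1 to 4. It was lower in 4 of 4 pairs and had the widest range between numbers, 2.39 on the log2 scale. The 2 values of number 3 rest on few reads, since hLcn-2 sample 3 held 7. NDC80 itself was also lower in 4 of 4 pairs (log2 fold change -0.32), while NUF2, of the same complex, was higher by 0.42 in pair 3 and lower in the others.

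CENPA, the histone H3 variant that marks centromeres, was higher in every pair, with 36.6, 48.8, 10.4 and 25.7 in controls 1 to 4 and 38.5, 49.2, 15.3 and 27.2 in hLcn-2 samples 1 to 4. The difference was 0.52 on the log2 scale in pair 3 and between 0.0097 and 0.079 in the others, and the sign was lost in at least 1 pair with DESeq2 size factors or CPM of the column total. Exons of CENPA overlap SLC35F6 on the same strand, so reads may be shared. HJURP, the chaperone that loads CENPA, was below its control in each pair, from a log2 difference of -0.0072 in pair 3 to -0.28 in pair 4. CENPN, which reads CENPA nucleosomes, was the member least set apart in number 3, with 15.7, 22.6, 8.81 and 15.8 in controls 1 to 4 and 11.7, 20.4, 12.3 and 16.5 in hLcn-2 samples 1 to 4. Its pairs had no common direction (log2 fold change -0.0083), and 4 genes on the opposite strand and 1 on the same strand overlap its exons.

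Of the 8 kinesins, the motors that slide and shorten spindle microtubules, 6 had a lower mean and 3 were lower in 4 of 4 pairs. KIF18A, which damps chromosome movements at metaphase, lay at 43.0, 52.5, 16.0 and 48.1 in controls 1 to 4 and 34.6, 40.7, 14.3 and 36.1 in hLcn-2 samples 1 to 4. Each hLcn-2 value was below its control, with log2 differences of -0.15 in pair 3 and between -0.40 and -0.31 in the others, with an adjusted p of 0.275 in limma with the block. KIF14, a kinesin of the cytokinetic midbody, lay at 132, 151, 37.2 and 151 in controls 1 to 4 and 102, 149, 37.5 and 126 in hLcn-2 samples 1 to 4. Its pairs 2 and 3 differed by -0.020 and 0.012 on the log2 scale and pairs 1 and 4 by -0.36 and -0.26. KIF20A and KIFC1 were the kinesins with a higher mean, by 0.093 and 0.20, and each was lower in 1 pair.

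All 5 of the other spindle proteins (NUSAP1, PRC1, HMMR, DLGAP5 and ASPM) and all 3 cytokinesis genes (ANLN, ECT2 and RACGAP1) were lower in 4 of 4 pairs. ASPM, a spindle pole protein, lay at 243, 287, 112 and 240.3 in controls 1 to 4 and 186, 248, 83.4 and 198 in hLcn-2 samples 1 to 4. The differences were -0.38, -0.21, -0.41 and -0.28, and its adjusted p with the block was 0.104 in limma and 0.0647 in edgeR. ECT2, the exchange factor that activates RhoA at the cleavage furrow, lay at 207, 219, 98.0 and 248 in controls 1 to 4 and 171, 177, 83.4 and 154 in hLcn-2 samples 1 to 4. Pair 4 differed most (-0.69) and the other pairs by -0.31 to -0.23, with an adjusted p of 0.110 in limma and 0.0433 in DESeq2, both with the block. The 28 members counted as lower in 4 of 4 pairs include 4 with a pair that was nearly level, CDCA3, CENPE, HJURP and NUSAP1, whose smallest difference lay between -0.0072 and -0.00046.

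Among the 44 members with a promoter entry, the 33 with TTTGAA had a median log2 fold change of -0.22 and the 11 without it one of -0.093. The median log2 differences between number 3 and the others were -1.59 and -1.43. BUB1 and SGO1, among the 11 without TTTGAA, held the variant TTCGAA. The medians are descriptions, since members of one list share their samples.

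Other genes of the cycle were taken from hand-made lists. Over all 15593 genes tested, 49.8% had a lower mean, 10.9% were lower in 4 of 4 pairs and 27.4% passed the test of number. With the block, 1900 of all genes tested were under an unadjusted threshold of 0.05 in limma. Calls over all genes were 44 by limma, 233 by edgeR and 181 by DESeq2, each with the block. Of 65 further G2/M genes, 63 were tested, of which 53 had a lower mean, 28 were lower in 4 of 4 pairs and 59 passed the test of replicate number. Their median log2 fold change was -0.18, close to that of the members. None was called by limma with the block, with 25 at an unadjusted threshold of 0.05, and edgeR and DESeq2 with the block each called 2. Both called KIF20B (log2 fold change -0.39) and GTSE1 (-0.56), lower in 4 of 4 pairs and named after their values were seen. The largest difference of this list was that of the kinesin gene KIF24 (-0.76, standard error 0.28 with the block), which had normalized counts of at most 4.61 in any sample. Of 27 replication and S phase genes, 21 had a lower mean (median -0.21), 11 were lower in 4 of 4 pairs and 23 passed the test of number. RRM2, a subunit of ribonucleotide reductase, was called in the fit with the block. It lay at 103, 112, 35.4 and 119.8 in controls 1 to 4 and 67.2, 81.8, 20.7 and 83.7 in hLcn-2 samples 1 to 4. Its log2 fold change was -0.58 (standard error 0.092, adjusted p = 0.0317 in limma with the block), and it was lower in 4 of 4 pairs. With the block, edgeR and DESeq2 each called 3 genes of this list, RRM2, FEN1 and CLSPN, all lower, of which FEN1 and CLSPN were named after their values were seen. CLSPN, which encodes the replication checkpoint adaptor claspin, had the largest difference of the list, -0.70 (standard error 0.13 with the block), and an adjusted p of 0.0520 in limma and 0.00792 in edgeR, both with the block. Of 27 regulators of the DREAM, MuvB and RB family, FOXM1 among them, 26 were tested, and they had a median of -0.027 with 15 lower and 11 higher. Among these, 10 passed the test of number (38.5%, against 27.4% of all genes tested). E2F2 had the largest difference (-0.67, standard error 0.23 with the block), with 0 reads in hLcn-2 sample 3. None was called by limma with the block, with 6 at an unadjusted threshold of 0.05. LIN52, a MuvB subunit named after its values were seen, was the 1 gene of this list called by edgeR and by DESeq2 with the block (adjusted p = 0.0193 and 0.0249). LIN52 lay at 32.4, 31.9, 55.5 and 35.6 in controls 1 to 4 and 46.2, 44.4, 67.6 and 57.8 in hLcn-2 samples 1 to 4. Each pair was higher after hLcn-2 (log2 fold change 0.48), and number 3 was the highest sample of both groups.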

How the data were processed

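RNA of 8 samples was measured with QuantSeq 3′ libraries that carry unique molecular identifiers (UMI), sequenced single-end for 75 cycles on a NextSeq 500. Per the methods and labels, the authors aligned reads to GRCh38 with STAR, merged copies by UMI and used HTSeq to count reads per gene (versions and the strand setting are not given in the sources used here). The deposited values are a normalized signal per gene, on the scale of CPM of a library size adjusted by the authors. In each column 100% of values were whole multiples of a single step (tolerance 0.1 read), so reads were recovered. A level of 3 reads, taken as the lowest that can be shown, was worth 0.211 (control 1) to 1.98 (control 4). A value with a decimal comma was read as one with a decimal point.

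Genes needed 1 CPM or more in 2 or more samples. Their values, as log2(normalized count + 1), were tested in R 4.3.3 by limma 3.58.1 (eBayes with trend), with Benjamini-Hochberg adjustment over all genes tested. Fold changes on this scale understate those of low genes. The study's methods name edgeR and no pairing, so the first fit had no block. The number was tested with an F test in the model with treatment. On the recovered reads, the quasi-likelihood test of edgeR 4.0.16 called 0 genes without and 233 with the replicate block, and DESeq2 1.42.0 called 0 and 181. Same-numbered samples deviated together from their group means (correlations across genes of 0.48, 0.59, 0.61 and 0.31). Each control correlated most with the hLcn-2 sample of its own number, so the numbers were taken to pair the samples. The group means include number 3, so its distance from the others can raise the correlations of numbers 1, 2 and 4. Scripts were tested on simulated data.

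Values are given in all samples for members called by limma, for the member of each role group with the largest absolute log2 fold change and the one with the highest mean, for the 5 members with the widest and the 2 with the narrowest range between numbers, and for 7 well-known genes (CCNB1, CDK1, PLK1, AURKA, TOP2A, FOXM1 and BIRC5). CENPA was singled out after its values were seen. The members, role groups and other lists were chosen with earlier results of these data known. Gene positions are from GENCODE 44. Exons of 22 members overlap those of another gene (5 on the same and 20 on the opposite strand), and 15 members have a pseudogene named after them, so their counts may be shared. PKMYT1, ARHGAP11B and LIN37 were not analysed here.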

Additional observations from a re-analysis of the deposited data

Results flagged for a closer look

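In 5 of 42 groups of 4 samples (21 genes in 2 groups), a single sample lay far from the other 3, with a gap to the nearest of them that took a larger part of the group's range than Dixon's 95% critical value allows, where chance gives about 1 in 20, or 2.1 groups. All 5 were samples with number 3, on the low side. In controls, they were MKI67 in control 3 with 74.0 normalized counts (gap 0.877 of the range), CCNB2 with 19.6 (0.891), SGO2 with 35.3 (0.879) and KIF14 with 37.2 (0.8294). Among hLcn-2 samples it was AURKA in sample 3 with 39.0 (0.835). The 42 groups are not independent, since the genes share their samples. Some of the 21 genes were also chosen for their range between numbers in these data. The count of 5 is thus a description of the low values in number 3 and not a further test.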

How the results depend on the processing

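The counts of calls depended mainly on the replicate block. Without it 0 genes and 0 members were called, and with it 44, 233 and 181 genes and 1, 4 and 4 members (limma, edgeR and DESeq2). With the block in limma, the 1 call among the members (MKI67) became 0 with a pseudocount of 0.1 or with no intensity trend, was 4 in edgeR and 4 in DESeq2, and 0 to 3 when a pair was left out. Within limma, CENPF was the other named member called, in the fit without pair 4. With all 8 samples, no named member but MKI67 was called by limma with the block in any setting. Named members called beside MKI67 were CCNB2, CENPF and SGO2 in edgeR and CCNB2, CENPF and ECT2 in DESeq2. The test of replicate number called 1294 genes without the trend, and leaving out 1 number gave 895 to 5025 genes and 3 to 50 members. Members lower in 4 of 4 pairs were 25 to 32 under 3 other scalings, added after the data were seen. Members higher in 4 of 4 pairs were 0 with DESeq2 size factors, 0 with CPM of the column total and 2 in the 3 pairs without number 3.

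Without 1 sample or 1 pair, the members' median log2 fold change ranged from -0.60 (without control 3) to 0.21 (without hLcn-2 sample 3), and it lay between -0.17 and -0.22 when a whole pair was left out. Under the other scalings the median of all genes lay between -0.027 (CPM of the column total) and 0.0097 (TMM), against 0.00083 in the main fit. Leaving out hLcn-2 sample 3 turned the sign of 16 of the 21 named members. That setting keeps the low control 3 without its partner, so the spread between numbers enters the difference between groups. The same holds in reverse without control 3, and the ranges given next include both settings. The ranges of log2 fold changes over all samples and pairs left out were MKI67 -0.94 to -0.054, CCNB2 -0.89 to -0.020, ECT2 -0.67 to -0.13, CCNB1 -0.54 to 0.38, TPX2 -0.63 to 0.24, BIRC5 -0.84 to 0.13, AURKB -0.37 to 0.23, SGO2 -0.79 to 0.017, PTTG1 -0.40 to 0.31, SPC25 -1.02 to 0.088, CENPF -0.76 to 0.080, KIF18A -0.69 to 0.022, KIF14 -0.64 to 0.27, ASPM -0.62 to 0.0077, TOP2A -0.61 to 0.18, CDC20 -0.64 to 0.43, PLK1 -0.54 to 0.45, FOXM1 -0.20 to 0.40, CENPN -0.24 to 0.18, CDK1 -0.60 to 0.055 and AURKA -0.60 to 0.30. With all 8 samples, 3 named members turned sign. PLK1 was at -0.0093 with a pseudocount of 5, -0.022 with CPM of the column total, -0.027 in edgeR with the block, and -0.072 and -0.033 in DESeq2 without and with the block. FOXM1 was at -0.21 in edgeR with the block, and CENPN at 0.00084 with TMM scaling. The cause was not tested. Genes with few reads, such as FOXM1 and UBE2S, are limited by depth. Fits by edgeR and DESeq2 were not repeated with pairs left out.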

Other observations

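Without number 3, the limma F test of number called 3 of the 51 members, CENPA, MAD2L1 and NUSAP1. Over all genes tested 5.74% (895 genes) were called, a share close to that of the members. CENPA lay at 36.6, 48.8 and 25.7 normalized counts in controls 1, 2 and 4, and at 38.5, 49.2 and 27.2 in hLcn-2 samples 1, 2 and 4. MAD2L1, a spindle checkpoint protein, lay at 91.3, 114 and 77.0 in these controls and at 94.8, 107 and 72.0 in these hLcn-2 samples. Both genes were highest in number 2 and lowest of the 3 in number 4. NUSAP1 had 136, 174 and 190.3 in controls and 99.5, 144 and 143 in hLcn-2 samples, and was lowest of the 3 in number 1. These genes were named after their values were seen.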
